A study of Mus musculus with 2 samples.

Results

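The 4 mouse Id genes, Id1, Id2, Id3 and Id4, were followed through the stromal cells of bone marrow. They were taken by name as 4 of the 25289 gene columns of a single-cell count table. No measured value was used to choose them, but earlier results of these data were known. All 4 passed the filter on low counts, which kept 6229 genes for tests between cell classes.

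Id proteins are helix-loop-helix proteins that lack the basic region with which their relatives bind DNA. They pair with E proteins, such as those made from Tcf3, Tcf4 and Tcf12, and keep them and their tissue-specific partners off DNA. Id genes are well known as direct targets of bone morphogenetic protein (BMP) signals, which act through receptor kinases and Smad proteins, and they have been studied in bone and fat cell formation.

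The cells came from the bone marrow of mice labelled C56BL/6, 8 to 16 weeks old, with no genotype or treatment that differed between samples. Crushed leg and pelvic bones were digested with collagenase and dispase for 45 minutes, and viable cells without surface CD45, Ter119 and CD31 (markers of blood, red and endothelial cells) were sorted. The 2 samples, Stroma1 and Stroma2, were captured in droplets by inDrops as 5 libraries. Whether these were separate animals is not in the labels. The p-values below rest on how far differences between classes or bins varied between the 2 samples, with the samples' mean difference taken out. That spread may be only technical.

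Stroma1 held 948 passing cells with 1658990 counts, and Stroma2 held 1899 with 3687913. The authors' cell classes were used: MSC, then Adipocyte progenitor and Pre-adipocyte on the fat side, and Osteoblast progenitor, Pre-osteoblast/chondrocyte and Pro-osteoblast on the bone side. The small Pro-chondrocyte class (4 and 10 cells) is given as values only. How the classes and pseudotimes were made is not given in the sources used here, and genes compared here may have helped to define them. Summed niche markers (Lepr, Cxcl12, Kitl, Adipoq, Vcam1, Angpt1) stood at 72139 and 74153 CPM (counts scaled to a library of 1e6) in MSC, and osteoblast markers at 212121 and 210573 in Pro-osteoblast. Of the 5 cartilage markers (Sox9, Acan, Col2a1, Comp, Matn3), Acan and Matn3 were at 0 in both samples of Pre-osteoblast/chondrocyte. At the depth of that class, 0 counts allow up to 54.3 and 25.1 CPM. The 5 summed to 344 and 109 CPM there, against 38.4 and 61.4 in MSC. These markers do not settle the cartilage part of that name. The 8 endothelial markers summed to between 5.34 and 42.1 CPM in every class. In all, 499 of the 2847 passing cells carried a barcode that also occurred in another library of their sample.

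The 4 genes lie on 4 chromosomes (GRCm38, GENCODE vM21). Id1 is at chromosome 2, bases 152736251 to 152737410 on the plus strand, with 2 exons. Id2 is at chromosome 12, bases 25093799 to 25097140 on the minus strand, with 4 exons. Id3 is at chromosome 4, bases 136143497 to 136145755 on the plus strand, with 3 exons. Id4 is at chromosome 13, bases 48261228 to 48266026 on the plus strand, with 3 exons. Id4 overlaps the antisense gene A330033J07Rik, which has its own column, and since use of strand in the counting is not stated, reads of that pair cannot be told apart.

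What the family shares is the helix-loop-helix region. The most alike stretch of 40 codons is shown because it is what makes the 4 genes a family. Capitals mark the 69 of 120 bases that are the same in all 4 genes.
Id1 codons 60 to 99: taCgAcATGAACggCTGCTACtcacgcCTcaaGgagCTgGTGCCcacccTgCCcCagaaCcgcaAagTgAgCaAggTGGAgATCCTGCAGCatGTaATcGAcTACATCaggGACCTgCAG
Id2 codons 37 to 76: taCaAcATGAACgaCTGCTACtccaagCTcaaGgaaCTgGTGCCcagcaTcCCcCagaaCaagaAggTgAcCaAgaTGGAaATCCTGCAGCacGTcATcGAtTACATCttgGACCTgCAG
Id3 codons 42 to 81: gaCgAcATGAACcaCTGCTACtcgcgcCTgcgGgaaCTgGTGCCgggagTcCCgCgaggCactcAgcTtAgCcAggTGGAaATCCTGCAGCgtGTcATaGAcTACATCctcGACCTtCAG
Id4 codons 66 to 105: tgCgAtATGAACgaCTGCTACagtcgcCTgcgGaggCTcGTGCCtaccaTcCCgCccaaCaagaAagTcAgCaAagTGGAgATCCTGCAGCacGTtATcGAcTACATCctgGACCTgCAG
Identity over this stretch was highest between Id1 and Id2 (81.7%) and lowest for Id1 with Id3 and for Id3 with Id4 (70.8% each). The longest exact run shared by any pair of whole transcripts was 19 bases, between Id2 and Id3. How reads that match more than 1 gene were counted is not given, and a split of reads between members was not tested.

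The region around the start of each gene was read from RefSeq windows (GRCm38.p6) that run from 250 bases before to 50 bases after a start site. Id2, Id3 and Id4 had a window and Id1 had no entry. The RefSeq start is not the outer end of the GENCODE gene given above. For Id2 it is base 25096092, 1048 bases inside the GENCODE gene and equal to the start of a shorter GENCODE transcript. For Id3 it is base 136143822, 325 bases inside the gene, and for Id4 it is base 48261116, 112 bases before it. The windows of Id2 and Id3 therefore lie within the GENCODE genes, downstream of a longer transcript's start. In all, 7 short motifs were searched on both strands in these windows and in all 32851 windows of the table. The Smad GC-rich element GGCGCC, through which Smads can bind, occurred once in the window of Id2 and once in that of Id4, not in that of Id3, and in 11.9% of all windows. The 30 bases around each match are shown with the motif in capitals, because BMP signals are the best known input of these genes.
Id2 chr12:25096305-25096334, minus strand, 231 bases before the RefSeq start: caggccccctgGGCGCCcagcgcacactgt
Id4 chr13:48260957-48260986, plus strand, 148 bases before the RefSeq start: tcgggttgcccGGCGCCccgccctcgccac
The core of the cAMP response element, TGACG, occurred once in Id3 and once in Id4 and in 20.8% of all windows, and is shown on the gene's strand as its reverse complement.
Id3 chr4:136143641-136143670, plus strand, 170 bases before the RefSeq start: gctgtcctcggCGTCAgaccagcctaagga
Id4 chr13:48260876-48260905, plus strand, 229 bases before the RefSeq start: attggcccgagCGTCAttccccgaggtggc
The GC box GGGCGG (35.7% of windows) had 1 match in Id2, 2 in Id3 and 5 in Id4, and the E box CANNTG (72.3%) had a match in Id2 alone of the 3. The full cAMP response element TGACGTCA, which would contain TGACG (1.79%), the AP-1 element TGANTCA (7.81%) and the TATA box TATAAA (13.6%) had none in the 3 windows. By GENCODE the Id2 match lies inside the gene but in no exon, the Id3 match lies in an exon of 1 of its 3 transcripts, and both Id4 matches lie outside the gene. These matches describe letters and were not tested against the levels.

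Id1, Id2 and Id3 were higher in the adipocyte classes than in MSC, and Id4 set itself apart on the osteoblast side, where it was lower than in MSC in both late classes. Levels below are TMM-scaled CPM: counts summed per sample and class, as CPM with TMM library factors. They are compared between classes for 1 gene, not between genes. A difference was called when its p from edgeR's quasi-likelihood test, adjusted by Benjamini-Hochberg over all genes tested, was under 0.05. The 5 comparisons with MSC share the MSC cells and are not independent.

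Id3, the member with the most counts (3654 in Stroma1 and 6847 in Stroma2), stood at 1377 and 1248 TMM-scaled CPM in MSC. It stood at 3108 and 2902 in Adipocyte progenitor and at 4741 and 4576 in Pre-adipocyte. Both adipocyte classes lay above MSC with no overlap between samples. On the osteoblast side Id3 stood at 2336 and 2487 in Osteoblast progenitor, at 1784 and 2260 in Pre-osteoblast/chondrocyte and at 1565 and 2178 in Pro-osteoblast. The 2 latter ranges overlap each other, and neither reaches down to MSC. As log2 fold changes against MSC, Id3 was higher by 1.19 (SE 0.13, adjusted p = 1.5e-12) in Adipocyte progenitor and by 1.83 (SE 0.13, adjusted p = 4.2e-21) in Pre-adipocyte. The differences were 0.88 (SE 0.13, adjusted p = 1.5e-07) in Osteoblast progenitor, 0.65 (SE 0.16, adjusted p = 0.0008) in Pre-osteoblast/chondrocyte and 0.57 (SE 0.14, adjusted p = 0.00029) in Pro-osteoblast. Within Stroma1 alone and Stroma2 alone these last differences were 0.37 and 0.86 in Pre-osteoblast/chondrocyte and 0.18 and 0.80 in Pro-osteoblast, so their size is uncertain. The Pro-osteoblast difference also depended on the scaling, as described further on.

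Id2 is also known for roles in lymphoid and fat cells. Its log2 differences from MSC were the largest of the 4 genes in both adipocyte classes. That ranking was not tested and did not hold on the adipocyte path described below. Id2 stood at 93.1 and 74.3 TMM-scaled CPM in MSC, at 467 and 435 in Adipocyte progenitor and at 705 and 719 in Pre-adipocyte. These are differences of 2.44 (SE 0.20, adjusted p = 5.4e-18) and 3.10 (SE 0.21, adjusted p = 1e-22) on the log2 scale. Id2 was also higher in Osteoblast progenitor, at 180 and 202 (log2 1.22, SE 0.23, adjusted p = 2.9e-05). The remaining classes did not pass the test: Id2 stood at 85.0 and 134 in Pre-osteoblast/chondrocyte (adjusted p = 0.43) and at 131 and 121 in Pro-osteoblast (adjusted p = 0.056).

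Id1, the classic BMP target of the family, had few counts (84 and 159 in all passing cells), so its errors were wide. It stood at 27.1 and 24.2 TMM-scaled CPM in MSC and at 97.6 and 98.1 in Adipocyte progenitor. In Pre-adipocyte it stood at 93.5 and 165. Both adipocyte classes were called higher, by 1.93 (SE 0.35, adjusted p = 2.5e-05) and 2.38 (SE 0.40, adjusted p = 1.4e-06) on the log2 scale, and their samples overlap each other but not MSC. Osteoblast progenitor, at 51.4 and 47.7, did not pass (log2 0.93, SE 0.41, adjusted p = 0.19). Pre-osteoblast/chondrocyte rested on 2 and 7 counts and Pro-osteoblast on 2 and 17, and neither was called.

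Id4 had a different order. It stood at 340 and 347 TMM-scaled CPM in MSC, and its highest class was Osteoblast progenitor, at 588 and 520 (log2 0.68, SE 0.17, adjusted p = 0.0022). Adipocyte progenitor followed at 522 and 513 (log2 0.59, SE 0.16, adjusted p = 0.016). Both calls were small and were lost under several other settings listed at the end. By library, Osteoblast progenitor held Id4 at 702, 629, 693, 253 and 792 raw CPM (libraries 1.1, 1.2, 2.1, 2.2 and 2.3). In library 2.2 that lay below MSC, at 367. Pre-adipocyte, at 425 and 520, lay above MSC in both samples but did not pass (log2 0.49, SE 0.19, adjusted p = 0.10).

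In the late osteoblast classes Id4 lay below every other class in both samples. It stood at 119 and 118 TMM-scaled CPM in Pre-osteoblast/chondrocyte, from 7 and 14 counts. By library Id4 ran from 25.6 to 215 raw CPM there, on 1 to 10 counts each. In Pro-osteoblast it stood at 56.2 and 24.0, from 6 and 17 counts in 42 and 305 cells. Against MSC the log2 differences were -1.54 (SE 0.32, adjusted p = 0.0001) and -3.56 (SE 0.29, adjusted p = 3.1e-19). Within the samples the Pro-osteoblast difference was -2.59 in Stroma1 and -3.85 in Stroma2, so its size is less certain than its direction. It was lower than MSC in all 5 libraries: raw CPM were 328, 470, 483, 367 and 380 in MSC and 58.5, 9.82, 13.9, 13.3 and 8.05 in Pro-osteoblast, for libraries 1.1, 1.2, 2.1, 2.2 and 2.3.

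**Figure D1:**
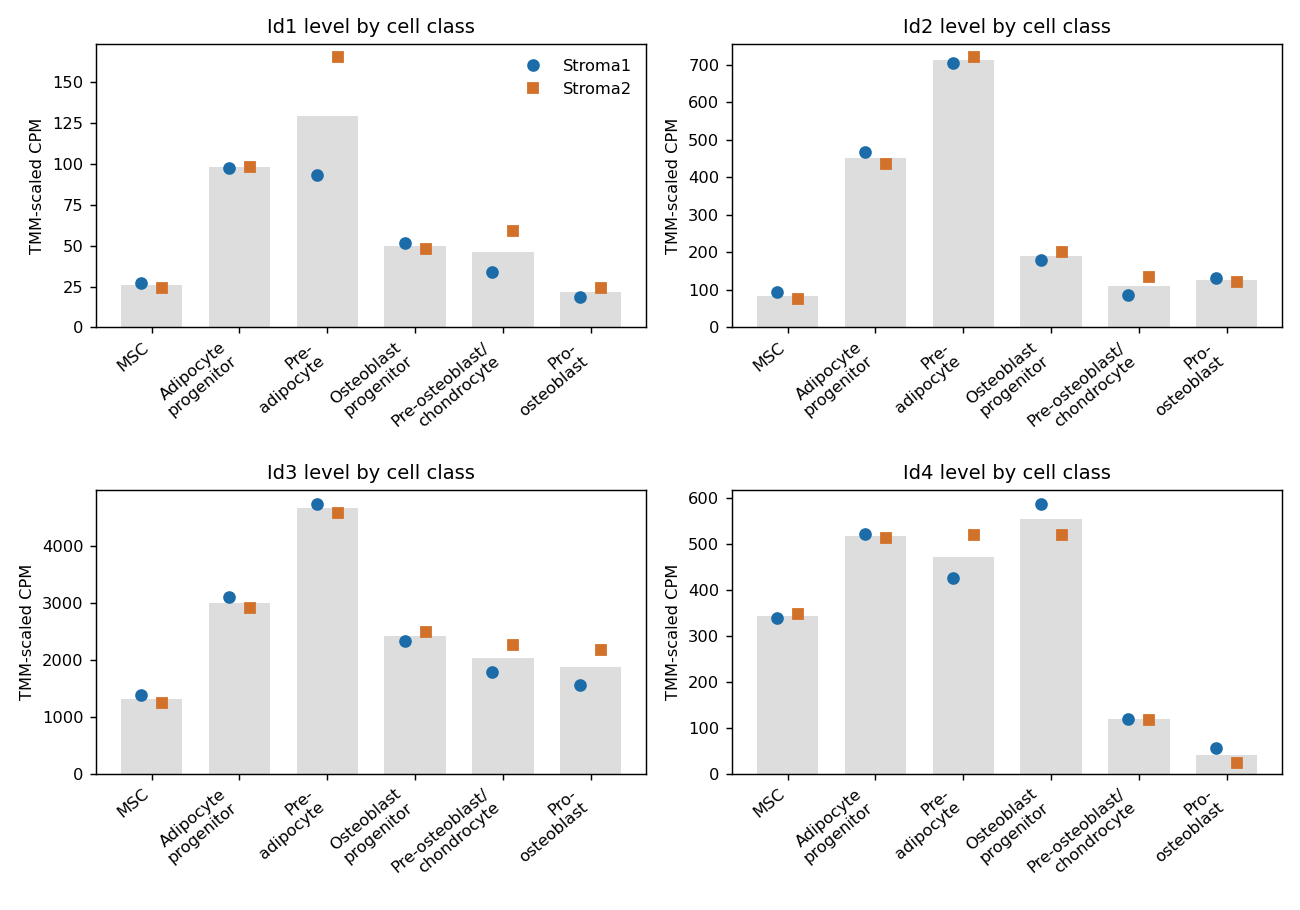
TMM-scaled CPM (linear axis from 0) of each Id gene in the 6 classes; bars are the mean of 2 samples, circles Stroma1 and squares Stroma2. The means of Id1, Id2 and Id3 are highest in Pre-adipocyte, while that of Id4 is highest in Osteoblast progenitor and is lowest in Pro-osteoblast, at 56.2 and 24.0.

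Read against all 6229 genes, all 4 Id genes were called higher in Adipocyte progenitor, where 4.17% of genes were called, 3.95% higher and 0.225% lower. In Pre-adipocyte 3 of 4 were called higher, where 10.3% of genes were called, 8.48% higher and 1.86% lower. In Osteoblast progenitor 3 of 4 were called higher, where 7.93% of genes were called, 4.62% higher and 3.31% lower. In Pre-osteoblast/chondrocyte Id3 was called higher and Id4 lower, where 18% of genes were called, 9.36% higher and 8.62% lower. The same 2 calls were made in Pro-osteoblast, where 38.6% of genes were called, 19.9% higher and 18.7% lower, so that a call there is common.

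The Pro-osteoblast result for Id3 depends on what a cell's counts are divided by. Scaled to the raw total of counts, Id3 stood at 892 and 1066 CPM in Pro-osteoblast against 1602 and 1456 in MSC, and the log2 difference became -0.66. Id2 likewise turned to -0.67 and Id1 to -1.44, the latter now called. That scaling moved the median of all genes by -1.24 in this comparison, and 9.24% of the called genes were then higher, against 51.6% with TMM. Per cell, Id3 gave 2.33 and 1.83 counts in MSC and 3.98 and 5.07 in Pro-osteoblast, whose cells were deeper (medians of 4422 and 4201 counts against 1377.5 and 1160). Id4 was lower in Pro-osteoblast on every scale, per cell too, at 0.574 and 0.510 counts in MSC and 0.143 and 0.0557 in Pro-osteoblast. Raw totals shifted the median by -0.31 in Pre-adipocyte and -0.18 in Adipocyte progenitor, where Id1, Id2 and Id3 kept their calls and Id4 lost its call in Adipocyte progenitor.

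**Figure D2:**
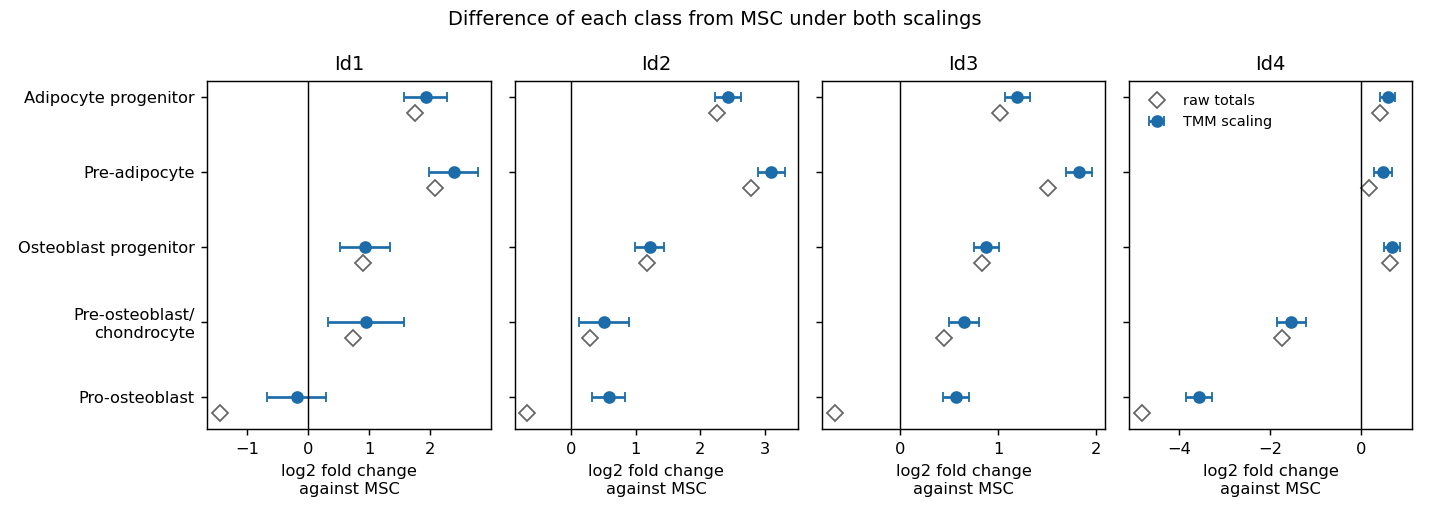
Log2 fold change of each class against MSC for each Id gene; filled circles with bars are TMM-scaled estimates ± 1 SE and open diamonds the same fit on raw totals. The scalings agree in sign in the adipocyte classes, and part in Pro-osteoblast, where Id2 and Id3 move to -0.67 and -0.66 while Id4 is lower under both.

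All 15 pairs of classes were compared for each gene, and 5 pairs were called for Id1 and 11 each for Id2, Id3 and Id4. The count for Id1 went to 8 with raw totals, through 3 further pairs with Pro-osteoblast, to 7 with RLE factors and to 4 without the count filter. For Id2 it ranged from 8 to 11, for Id3 from 9 to 13 and for Id4 from 9 to 11 over the settings that tested all 15 pairs. The share of all genes called, beside the 5 pairs with MSC above, was 4.96% for Pre-adipocyte against Adipocyte progenitor, 9.31% for Pre-osteoblast/chondrocyte against Osteoblast progenitor and 17.2% for Pro-osteoblast against Pre-osteoblast/chondrocyte. Against Adipocyte progenitor it was 7.55% for Osteoblast progenitor, 16.5% for Pre-osteoblast/chondrocyte and 38.2% for Pro-osteoblast. Against Pre-adipocyte it was 13.4%, 19.1% and 38.9% in the same order, and it was 31.8% for Pro-osteoblast against Osteoblast progenitor. Id1 ran from Pre-adipocyte down to Pro-osteoblast with no pair of neighbours differing. For Id2, Adipocyte progenitor lay above Osteoblast progenitor (adjusted p = 2.6e-06).

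Some steps between neighbours were called in the fit but not under other settings. For Id2, Pre-adipocyte lay above Adipocyte progenitor by 0.67 (SE 0.19, adjusted p = 0.022). That call was lost without the count filter (adjusted p = 0.49), with raw totals (0.10), DESeq2 (0.060), thinned cells (0.21) or neighbour classes (0.27), and without library 1.1, 1.2, 2.1 or 2.2 (0.058 to 0.14). Osteoblast progenitor lay above Pro-osteoblast by 0.63 for Id2 (SE 0.25, adjusted p = 0.045). That call was lost without the filter (adjusted p = 0.20), with DESeq2 (0.066), at least 4 cells (0.053) or neighbour classes (0.20), without cells with an endothelial marker (0.065) and without library 1.2, 2.1 or 2.3 (0.066 to 0.21). In thinned cells that step was 0.057 (adjusted p = 0.96). Pro-osteoblast, Pre-osteoblast/chondrocyte and MSC did not pass the test as neighbours for Id2.

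For Id3, Pre-adipocyte lay above Adipocyte progenitor (log2 0.63, SE 0.13, adjusted p = 0.00035). This step was 0.38 without library 1.2 (adjusted p = 0.40) and 0.50 without the count filter (adjusted p = 0.064), neither called. The steps from Adipocyte progenitor through Osteoblast progenitor and Pre-osteoblast/chondrocyte to Pro-osteoblast did not pass, and Pro-osteoblast lay above MSC with TMM, as given above. For Id4, the steps from Osteoblast progenitor through Adipocyte progenitor and Pre-adipocyte to MSC did not pass, and MSC lay above Pre-osteoblast/chondrocyte by 1.54. Pre-osteoblast/chondrocyte lay above Pro-osteoblast by 2.03 (SE 0.50, adjusted p = 0.0012). The latter step was 1.08 in Stroma1 alone, and it was not called without library 2.2 (1.55, adjusted p = 0.082) or in thinned cells (adjusted p = 0.23).

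The makeup of the family's counts changed with these levels. Shares here are of the summed counts of the 4 genes, not corrected for transcript length, and are read between classes. Id3 gave 75.0% and 73.7% of them in MSC and 88.4% and 92.8% in Pro-osteoblast. Id4 gave 18.5% (exact Clopper-Pearson 95% interval 16.6 to 20.5) and 20.5% (18.8 to 22.3) in MSC. In Pro-osteoblast its share was 3.17% (1.17 to 6.78) and 1.02% (0.596 to 1.63), below MSC in both samples. The Id4 share was also below MSC in Adipocyte progenitor, at 12.4% (10.7 to 14.3) and 13.0% (11.5 to 14.6). In Pre-adipocyte it was 7.12% (5.33 to 9.28) and 8.69% (7.18 to 10.4). The Id4 level in these adipocyte classes lay above MSC in both samples, so a lower share is not by itself a lower level. Id2 gave 5.07% and 4.39% in MSC and 11.8% and 12.02% in Pre-adipocyte. These shares need no library scaling, and their intervals cover counting error only.

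**Figure D3:**
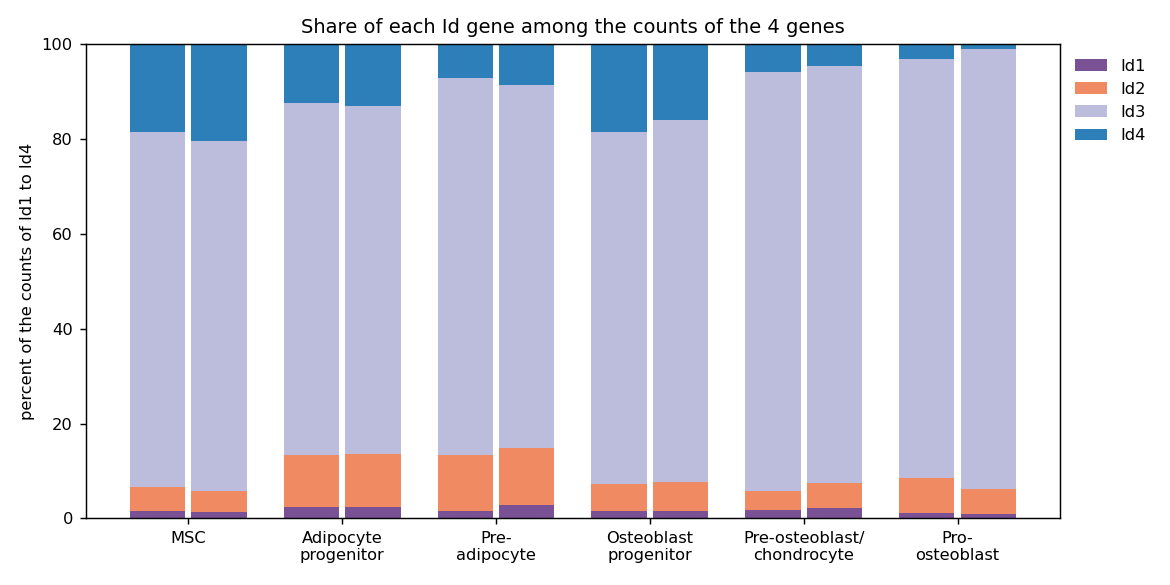
Percent of the summed counts of the 4 Id genes given by each gene; each pair of stacked bars is 1 class, Stroma1 left and Stroma2 right. Id4 shrinks from 18.5% and 20.5% in MSC to 3.17% and 1.02% in Pro-osteoblast, and Id2 widens to 11.8% and 12.02% in Pre-adipocyte.

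Cell by cell, each cell was thinned to 500 counts so that depth did not differ, and no passing cell of these classes was shallower. An Id3 count was then found in 46.2% and 40.6% of MSC and in 71.2% and 74.5% of Pre-adipocyte. In Pro-osteoblast it was found in 33.3% and 37.4%, against 71.4% and 81.0% before thinning. Unthinned MSC gave 69.5% and 57.9%, so the order of the 2 classes turns with depth. An Id4 count was found in 14.3% and 13.1% of thinned MSC. It was found in 0 of 42 and 0 of 305 thinned Pro-osteoblast cells. At 500 counts per cell this allows shares with a count of up to 7.14% and 0.984% (3 cells of each total), or 8.41% and 1.20% as exact Clopper-Pearson 95% bounds. These limits hold for the thinned depth and not for the share of cells that hold Id4: unthinned, 4 of 42 and 9 of 305 held an Id4 count.

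As a gauge of free RNA, erythroid-like barcodes outside the authors' filter (3 or more counts of erythroid markers and at least 500 counts) held Id3 in 7.69% and 9.12%, at medians of 6687 and 6873.5 counts. Their shares were 2.37% and 1.69% for Id4, 1.78% and 1.69% for Id2, and 1.78% and 0.338% for Id1. The unthinned Id4 share in Pro-osteoblast was 9.52% (exact Clopper-Pearson 95% interval 2.66 to 22.6) in Stroma1 and 2.95% (1.36 to 5.53) in Stroma2, at medians of 4422 and 4201 counts. The interval of Stroma2 includes the erythroid share, so Id4 there was not distinguishable from this background, whose depth was greater. B-lineage-like barcodes held Id4 in 0.787% and 0.802%, below both intervals, at medians of 1019 and 1007.5 counts. Barcodes under 500 counts with no filter label held Id4 at 90.5 and 78.2 raw CPM, against 32.0 and 11.7 in Pro-osteoblast. These gauges differ, and depth was not matched between them. Thinned cells with counts of at least 2 of the 4 Id genes made up 10.8% and 8.59% of MSC. Their shares were 29.1% and 24.5% in Adipocyte progenitor, 28.8% and 32.4% in Pre-adipocyte and 18.8% and 17.7% in Osteoblast progenitor. They were 0% and 12.1% in Pre-osteoblast/chondrocyte (25 and 66 cells) and 0% and 1.31% in Pro-osteoblast. Thinned shares, here and above, rest on equal raw totals per cell and carry the raw-total shift in Pro-osteoblast given earlier.

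The authors' pseudotimes order cells from MSC along osteoblast, chondrocyte and adipocyte paths, and the early cells are largely the same MSC on all 3. Cells were split into 5 equal bins of rank, and bin 5 was compared with bin 1. On the adipocyte path Id3 went from 1077 and 821 TMM-scaled CPM in bin 1 through 2038 and 1791 in bin 3 to 5178 and 4896 in bin 5. Id2 went from 74.4 and 44.7 to 753 and 748, and Id1 from 19.8 and 3.44 (4 and 1 counts) to 127 and 186. Id4 went from 288 and 292 to 585 and 714. Every gene was higher in bin 5 in both samples. The log2 differences were 3.90 (SE 0.54, adjusted p = 6.2e-08) for Id1, 3.70 (SE 0.26, adjusted p = 2e-18) for Id2, 2.42 (SE 0.10, adjusted p = 6.9e-29) for Id3 and 1.18 (SE 0.17, adjusted p = 2.7e-07) for Id4. All 4 were called, where 12.1% of 5904 genes were. The Id1 difference was the least certain, at 2.64 in Stroma1 alone and 5.60 in Stroma2 alone.

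On the chondrocyte path all 4 were again called higher in bin 5, where 18.6% of 5596 genes were called. The log2 differences were 2.31 (SE 0.69, adjusted p = 0.011) for Id1, 1.84 (SE 0.34, adjusted p = 1.5e-05) for Id2, 1.63 (SE 0.11, adjusted p = 6.6e-20) for Id3 and 0.76 (SE 0.20, adjusted p = 0.0024) for Id4. For Id1 the difference was 1.39 in Stroma1 alone and 3.81 in Stroma2 alone, and its call was lost with DESeq2 (adjusted p = 0.12) and without library 2.1 (0.062) or 2.2 (0.055). The Id4 call was lost without library 1.1 (0.50, adjusted p = 0.18) or 2.3 (0.43, adjusted p = 0.19). Bin 5 of this path was 68.8% and 67.2% Osteoblast progenitor, so the comparison describes mainly those cells.

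On the osteoblast path Id4 first rose and then fell. It stood at 260 and 270 TMM-scaled CPM in bin 1, at 417 and 387 in bin 2, at 438 and 486 in bin 3 and at 590 and 565 in bin 4. In bin 5 it stood at 77.2 and 24.5, below every earlier bin. Bin 4 was 78.8% and 79.9% Osteoblast progenitor, and bin 5 was 84% and 90.2% Pro-osteoblast. Id4 rose by 1.11 from bin 1 to bin 4 (SE 0.21, adjusted p = 7.7e-05, 9.28% of genes called) and then changed by -4.08 from bin 4 to bin 5 (SE 0.29, adjusted p = 2.3e-19, 32% called). Both contrasts were added after the data had been seen. Bin 5 against bin 1 gave -2.97 (SE 0.32, adjusted p = 1.9e-12), where 37.5% of 5709 genes were called.

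Id3 and Id2 were called higher at the end of the osteoblast path, by 1.21 (SE 0.17, adjusted p = 5.1e-09) and 1.45 (SE 0.37, adjusted p = 0.001). The Id3 difference was 0.80 in Stroma1 alone and 1.56 in Stroma2 alone. With raw totals these became 0.12 and 0.34 and were no longer called. Id1, from 4 and 2 counts in bin 1, did not pass (log2 1.18, SE 0.80, adjusted p = 0.27). Id3 stood at 2348 and 2584 in bin 4 and at 1716 and 2259 in bin 5, a change that did not pass (log2 -0.29, SE 0.16, adjusted p = 0.16).

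Id3 already differed among MSC cells. With MSC cells alone, an added comparison, bin 3 lay above bin 1 by 1.11 (SE 0.13, adjusted p = 3.5e-10) on the osteoblast path, where 1.43% of genes were called. The differences were 0.85 (SE 0.12, adjusted p = 1.4e-09) on the chondrocyte path, where 1.59% were called, and 0.98 (SE 0.13, adjusted p = 2.3e-07) on the adipocyte path, where 1.28% were called. The 3 paths share these MSC cells, so they are 1 observation rather than 3. Id4 was also called on the osteoblast path (log2 0.82, SE 0.20, adjusted p = 0.014) and on neither other path (adjusted p = 0.071 and 0.19). Without the count filter the osteoblast value was 0.78 and was no longer called (adjusted p = 0.0999). The pseudotimes may have been built with these genes.

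**Figure D4:**
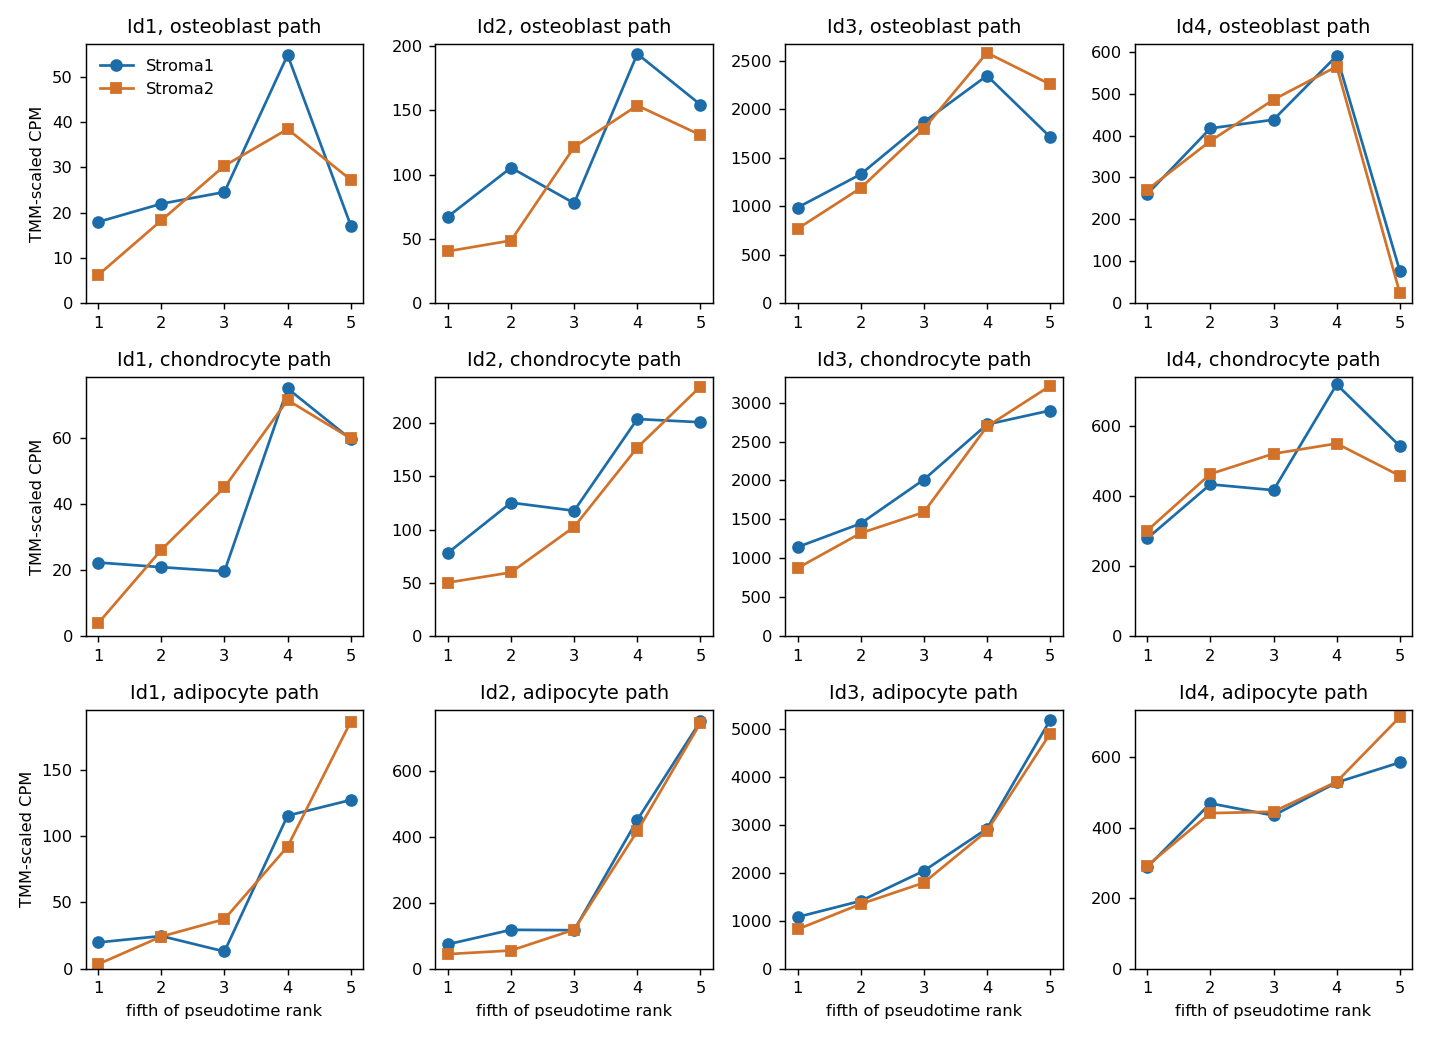
TMM-scaled CPM (linear axes from 0, a separate range for each panel) in 5 equal bins (the x axis) of the authors' pseudotime rank, for 4 genes and 3 paths; circles are Stroma1 and squares Stroma2. Id1 to Id3 end the adipocyte path at their highest, Id3 going from 1077 and 821 to 5178 and 4896, and Id4 climbs to bin 4 of the osteoblast path before it falls to 77.2 and 24.5.

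Of the 11 listed BMP ligands 6 were tested between classes. In Pre-adipocyte 1 of 6 was higher than in MSC and none lower, where 8.48% of all genes were higher and 1.86% lower. Raw totals gave 1 higher and 1 lower, beside 6.53% and 8.41% of all genes. The ligand called higher with TMM was Bmp2, which stood at 170 and 884 TMM-scaled CPM against 23.6 and 20.9 (log2 4.52, SE 0.37, adjusted p = 1.7e-18). The samples differed widely in this class, though both lay above MSC. Bmp4 stood at 407 and 301 in MSC, 195 and 179 in Osteoblast progenitor and 28.1 and 40.9 in Pro-osteoblast, and was called lower in both (log2 -0.89 and -3.06, SE 0.21 and 0.28). In Osteoblast progenitor 2 of 6 ligands were higher, Gdf10 (log2 2.04) and Bmp1 (0.62), and 1 lower, beside 4.62% and 3.31% of all genes. Raw totals gave 1 higher and 1 lower there, beside 4.08% and 3.69%. In Pro-osteoblast 2 of 6 ligands were higher and 3 lower, where 19.9% of all genes were higher and 18.7% lower. The 2 included Bmp3, at 272 and 265 against 0 and 1.67 in MSC. Raw totals gave 1 higher and 4 lower in Pro-osteoblast, beside 6.55% and 64.3% of all genes.

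Of the receptors and co-receptors 8 were tested. None was called in Adipocyte progenitor, Pre-adipocyte or Osteoblast progenitor with TMM, where Id2 and Id3 were higher. In these classes 4.17%, 10.3% and 7.93% of all genes were called, so none of 8 says little about the receptors. Raw totals gave 1 lower in Adipocyte progenitor, where 0.771% of all genes were then lower, 1 lower in Pre-adipocyte, where 8.41% were, and none in Osteoblast progenitor. In Pro-osteoblast 4 were lower and none higher, beside 18.7% of all genes lower, with Tgfbr3, a co-receptor for TGF-beta family ligands, at 28.1 and 26.8 TMM-scaled CPM against 594 and 596 in MSC. Raw totals gave 8 lower and none higher in Pro-osteoblast, but under that scaling 64.3% of all genes were called lower there and 6.55% higher.

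Secreted BMP antagonists trap ligands outside the cell. In Pre-osteoblast/chondrocyte 4 of 8 tested were lower than in MSC and 1 higher, beside 8.62% and 9.36% of all genes, and raw totals gave 5 and 1, beside 10.96% and 7.19%. In Pro-osteoblast 6 of 8 tested were lower and 1 higher, beside 18.7% and 19.9% of all genes, with a median log2 difference of -3.99 against 0.0056 for all genes. Raw totals gave 7 lower and 1 higher, beside 64.3% and 6.55% of all genes. Chrdl1 stood at 1224 and 1360 TMM-scaled CPM in MSC, at 0 in both samples of Pre-osteoblast/chondrocyte and at 112 and 19.7 in Pro-osteoblast. Grem1 was higher in Pre-adipocyte, at 688 and 816 against 403 and 349 in MSC, and stood at 18.7 and 7.04 in Pro-osteoblast. Nbl1 went the other way, at 15.3 and 10.9 in MSC and 393 and 352 in Pro-osteoblast.

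Inside the cell, 3 of 11 tested Smads and inhibitors were higher in Pre-adipocyte and none lower, beside 8.48% and 1.86% of all genes. They included Bambi, a decoy receptor, at 110 and 82.6 TMM-scaled CPM against 25.9 and 13.4, and Smad7, an inhibitory Smad, at 119 and 180 against 33.0 and 32.6. Bambi was highest in Pro-osteoblast, at 272 and 500. Of 10 tested genes listed as other BMP targets, 3 were higher in Adipocyte progenitor, 4 in Pre-adipocyte and 3 in Osteoblast progenitor, beside 3.95%, 8.48% and 4.62% of all genes, with none lower under TMM. Raw totals gave 3 higher and 1 lower in Pre-adipocyte, beside 6.53% and 8.41% of all genes. They gave 3 higher and none lower in Adipocyte progenitor, beside 2.76% and 0.771%, and in Osteoblast progenitor, beside 4.08% and 3.69%. In Pre-osteoblast/chondrocyte 5 of the 10 targets were higher and 1 lower with TMM, beside 9.36% and 8.62% of all genes. Raw totals gave 4 and 1 there, beside 7.19% and 10.96%. In Pro-osteoblast 4 were higher and 2 lower with TMM, beside 19.9% and 18.7% of all genes. Raw totals gave 3 and 6 there, beside 6.55% and 64.3%. Hes1, also a target of Notch signals, stood at 833 and 840 in Pre-adipocyte against 126 and 161 in MSC, and fell to 56.2 and 76.1 in Pro-osteoblast. Bambi, Smad6, Smad7, Hes1, Hey1, Atoh8 and Myc stand in more than 1 of the gene lists used here.

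Of the E proteins that Id proteins bind, Tcf3 stood at 28.3 and 37.6 TMM-scaled CPM in MSC and at 25.5 and 34.0 in Pre-adipocyte, and Tcf12 at 66.0 and 50.1 and at 42.5 and 82.6. Neither was called in any class against MSC. At the depth of Pre-adipocyte 3 counts amount to 24.1 and 13.9 raw CPM, so the lack of a call there says little about either gene. Tcf4 stood at 166 and 165 in MSC, at 178 and 185 in Pre-adipocyte and at 347 and 379 in Pro-osteoblast. The last was called higher (log2 1.12, SE 0.21, adjusted p = 3.2e-06) with TMM and turned to -0.11 with raw totals. Twist1, a tissue-specific partner of E proteins, stood at 43.6 and 43.4 in MSC and at 590 and 538 in Pro-osteoblast.

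Immediate-early genes, which switch on within minutes of many stimuli including tissue handling, moved with Id1, Id2 and Id3 in the adipocyte classes. All 21 tested were higher than in MSC in both Adipocyte progenitor and Pre-adipocyte, with median log2 differences of 2.51 and 3.68. With TMM 3.95% and 8.48% of all genes were higher there. Raw totals gave 21 immediate-early genes in each as well, beside 2.76% and 6.53% of all genes. Their 22 listed genes summed to 8196 and 8572 raw CPM in MSC, 40668 and 40747 in Adipocyte progenitor and 65224 and 64544 in Pre-adipocyte. In Osteoblast progenitor, where Id2 and Id3 were also higher, they summed to 6747 and 8434, with 2 called higher and 1 lower, beside 4.62% and 3.31% of all genes. In Pro-osteoblast they summed to 2099 and 1731, with 3 called higher and 11 lower, beside 19.9% and 18.7% of all genes. Raw totals gave 2 higher and 18 lower there, beside 6.55% and 64.3% of all genes. Of the 21 tested, 13 were called higher and none lower in Pre-osteoblast/chondrocyte with TMM, beside 9.36% and 8.62% of all genes. The list's median log2 difference there was 0.80. Raw totals gave 11 higher and 1 lower in that class, beside 7.19% and 10.96%. On the chondrocyte path 13 of 18 tested were higher in bin 5 and none lower, beside 9.49% and 9.15% of all genes. On the osteoblast path 4 of 18 were higher and 6 lower, beside 18.5% and 19.0%. From bin 1 to bin 3 of the adipocyte path (100% and then 96.8% and 96.4% MSC), immediate-early genes rose as well. They summed to 5294 and 4255 raw CPM in bin 1 and to 11458 and 12711 in bin 3. Mitochondrial shares rose there from 3.87% and 3.94% to 4.61% and 4.70%. The part of either measure in the Id1, Id2 and Id3 differences, also those among MSC cells, was not tested.

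Other measures beside the adipocyte classes were as follows. Myeloid markers summed to 2014 raw CPM in Pre-adipocyte of Stroma1 and 335 in that of Stroma2, against 17.8 and 22.4 in MSC, and their part was not tested. Without the 89 cells that held an endothelial marker count, Id1 was higher by 2.12 in Adipocyte progenitor and by 2.47 in Pre-adipocyte, as large as with them. Mitochondrial shares ran from 2.73% in Pre-adipocyte of Stroma1 to 7.74% in Pre-osteoblast/chondrocyte of Stroma1.

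The genes most like each member were found by Pearson's r of log2 CPM over 12 sums (6 classes in 2 samples, each sample centred), among all genes tested. The 12 points share libraries and class depths, and r is a description. Id1 was most like Nfkbiz (0.956), Sertad1, Ccnl1, Ier3 and Egr1. Id2 was most like Hbegf (0.965), Rgs2, Dnaja1, Id3 (0.945) and Atf3. Id3 was most like Ubb (0.948), Hspa2, Id2 and Btg1. Id4 was most like Emb (0.988), Igfbp7 (0.985), Fstl1, Col5a3 and Igfbp4. Among members, r was 0.911 for Id1 with Id2 and 0.894 for Id1 with Id3, while Id4 gave 0.648 with Id1, 0.523 with Id2 and 0.399 with Id3. Igfbp7, a secreted binding protein, went with Id4 from means of 3567 TMM-scaled CPM in MSC to 743 in Pre-osteoblast/chondrocyte and 168 in Pro-osteoblast. Egr1, an immediate-early factor, went with Id1 from a mean of 476 in MSC to 3914 in Adipocyte progenitor and 6964 in Pre-adipocyte.

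In Pro-chondrocyte, 4 cells of Stroma1 held 1 Id3 count and 10 cells of Stroma2 held 51. Id1 had 0 and 2 counts there, and Id2 and Id4 had none, which at 4417 and 11696 total counts allows levels of up to 679 and 256 raw CPM. No comparison was made for so few cells.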

How the data were processed

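The deposited table gives a count of each gene in each barcode. The authors made these counts from inDrops reads, with Bowtie 1.1.1 and GRCm38 named in the submitters' processing notes. How reads were counted, with which annotation and with what use of molecular identifiers is not stated, so values are called counts. The authors' deposited fractions, per the file headers, are a barcode's mitochondrial share and pseudotimes from 0 to 1. Another 7 columns of per-barcode values were not used.

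Counts were summed per sample and class, or per sample and pseudotime bin, with at least 15 cells per sum. edgeR 4.0.16 in R 4.3.3 was run with TMM factors, filterByExpr (minimum count 10) and terms for class or bin and for sample, so the same-numbered sums of a sample, which come from 1 sample by the labels, are paired. SE is the log2 fold change over the root of F. The alternatives were RLE factors, no count filter, DESeq2 1.42.0, no replicate block, 1 sample or library left out, each barcode once, cells thinned to 500 counts, at least 4 cells, classes by vote of 15 neighbours, and 3 pseudotime bins in place of 5. Raw totals, the removal of cells with an endothelial marker, further bin contrasts and MSC cells alone were added after the data had been seen. The script was tested on simulated data. Doublets were not called.

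The members, gene lists, motifs and 40-codon window were chosen with earlier results of these data known. Named list genes follow a rule: per list and class, up to 3 highest and 3 lowest called genes with 1 direction in both samples; the rest named, and the list genes recomputed under the alternatives, were chosen after their values were seen. Intervals and floors of 3 counts cover counting error only. A gene among those most like a member is not reported here.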

Additional observations from a re-analysis of the deposited data

Results flagged for a closer look

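Id1 had a signal in barcodes that the comparisons do not use. Among barcodes outside the authors' filter with at least 500 counts, those whose endothelial markers led the other marker lists with 3 or more counts held Id1 at 316 raw CPM in Stroma1 (103 barcodes) and 207 in Stroma2 (129 barcodes). Both are above Id1 in every class of passing cells of the same sample. The highest values among the 6 compared classes were 100.1 and 158, and Pro-chondrocyte of Stroma2 gave 171 from 2 counts. The sort selected against CD31, an endothelial surface protein.

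Between the first and last bins, Id4 moved in opposite directions on different paths, whose last bins hold different classes. From bin 1 to bin 5 its log2 difference was -1.74 in Stroma1 and -3.45 in Stroma2 on the osteoblast path, 0.96 and 0.60 on the chondrocyte path and 1.02 and 1.29 on the adipocyte path. Bin 5 was 84% and 90.2% Pro-osteoblast on the osteoblast path and 68.8% and 67.2% Osteoblast progenitor on the chondrocyte path. In bin 4 Id4 lay above bin 1 on the osteoblast, chondrocyte and adipocyte paths, by 1.11, 1.10 and 0.87. With 3 bins in place of 5 its osteoblast difference was not called, as given below. The difference between paths was not tested, since the paths share their early MSC cells.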

How the results depend on the processing

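Of 512 alternative values for the Id genes against MSC or along a path, 476 were counted as the same. For values with a test this means the same direction and side of the threshold. Values from 1 sample alone have no test, and some counted as the same turned sign. In Stroma1 alone, Id2 in Pre-osteoblast/chondrocyte gave -0.13 and Id1 on the osteoblast path gave -0.062, both uncalled in the fit. Causes of the changes were not tested. Id4 in Adipocyte progenitor was no longer called without the count filter (0.57), with raw totals (0.41), DESeq2 (0.55) or thinned cells (0.32), or without library 1.1 (0.41), 2.2 (0.53) or 2.3 (0.48). Id4 in Osteoblast progenitor lost its call without the filter (0.61), with DESeq2 (0.64) or neighbour classes (0.50), or without library 1.1 (0.52) or 2.3 (0.44). Id2 there lost it when thinned (0.52) or by neighbours (0.61), and Id1 there gained one by neighbours (1.52). Id3 in Pre-osteoblast/chondrocyte gave 0.34 without the filter and 0.34 thinned, neither called. In Pro-osteoblast, raw totals gave -1.44 for Id1 (called) and reversed Id2 (-0.67) and Id3 (-0.66). Thinning gave 0.33 for Id3, not called. Without library 2.3 Id2 was called (0.72), and without library 1.2 or 2.1 Id1 turned to 0.13 or 0.050, uncalled.

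Leaving out a replicate gave a range of -3.85 to -2.59 for Id4 in Pro-osteoblast and of -3.45 to -1.74 on the osteoblast path, as values with no test. On that path raw totals gave 0.34 for Id2 and 0.12 for Id3 and thinning 1.52 for Id2, all uncalled, and 3 pseudotime bins gave -0.41 for Id4, uncalled. On the chondrocyte path Id1 lost its call with DESeq2 (2.32) or without library 2.1 (2.17) or 2.2 (2.01), and Id4 when thinned (0.62) or without library 1.1 (0.50) or 2.3 (0.43). Without library 1.1 or 1.2, Pre-osteoblast/chondrocyte held fewer than 15 cells in Stroma1 and gave no value. The fit with no replicate block, that is without pairing by sample, changed no call against MSC or along a path.

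Some uncalled pairs turned sign. Pre-osteoblast/chondrocyte against Osteoblast progenitor for Id1 gave -0.20 without the filter, -0.16 with raw totals, -0.0068 with DESeq2, -0.028 and -0.52 without library 2.1 and 2.2, -0.094 with each barcode once, -0.044 with at least 4 cells and -0.42 by neighbours. Pro-osteoblast against Pre-osteoblast/chondrocyte gave -0.011 with RLE, -0.97 with raw totals, -0.48 without library 2.2 and -0.35 by neighbours for Id2, and for Id3 0.10 without the filter and 0.031 without library 2.1. For Id4, Pre-adipocyte against Adipocyte progenitor gave 0.12 without library 1.1, 0.24 thinned and 0.016 by neighbours. Osteoblast progenitor gave -0.0048 and -0.039 against Pre-adipocyte without library 1.1 and by neighbours, and -0.040 and -0.023 against Adipocyte progenitor without library 2.3 and by neighbours. Pre-adipocyte against Adipocyte progenitor gave -0.045 for Id1 by neighbours. Bin 5 against bin 4 of the chondrocyte path gave 0.34 for Id1 without library 2.3 and 0.12 without cells with an endothelial marker. Tcf4 in Pro-osteoblast gave -0.11 with raw totals.

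Counts of called genes moved by over 1.5 times mainly with thinning, DESeq2 and raw totals. Against MSC, thinning gave 155 for Adipocyte progenitor, 340 for Pre-adipocyte, 272 for Osteoblast progenitor, 506 for Pre-osteoblast/chondrocyte and 924 for Pro-osteoblast, against 260, 644, 494, 1120 and 2407. DESeq2 gave 156 for Adipocyte progenitor and 278 for Osteoblast progenitor, and raw totals 4415 for Pro-osteoblast. On the osteoblast, chondrocyte and adipocyte paths thinning gave 927, 543 and 370 against 2139, 1043 and 713; DESeq2 gave 574 and 337 on the latter paths, raw totals 3486 on the first, and leaving out library 1.1 gave 462 on the last. With raw totals 43.7% of called genes were higher in Pre-adipocyte against 82.0%, 78.2% in Adipocyte progenitor against 94.6%, 39.6% in Pre-osteoblast/chondrocyte against 52.1%, 42.4% on the adipocyte path against 72.9% and 10.7% on the osteoblast path against 49.4%.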
